A study of Mus musculus with 54 samples.

Results

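Mouse lung fibroblasts that received branched-chain keto acids (BCKA) in place of branched-chain amino acids (BCAA) were compared with fibroblasts kept in complete medium, all of them stimulated with transforming growth factor β1 (TGF-β1). The comparison addresses what remains different from complete medium when keto acids replace the missing amino acids. It was chosen by the sample labels alone and holds 6 of the 54 samples of the series, 3 libraries with BCKA and 3 in complete medium. All genes were examined.

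BCAA are leucine, isoleucine and valine. Cells pass on their amino group through the transaminases Bcat1 and Bcat2, which leaves the BCKA, and the mitochondrial BCKA dehydrogenase complex then commits the carbon to oxidation. The kinase Bckdk switches that complex off and the phosphatase Ppm1k switches it on. The transamination is reversible, so keto acids can be turned back into amino acids where nitrogen is at hand. TGF-β1 turns fibroblasts into myofibroblasts, which contract through smooth muscle actin and secrete collagen.

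The series is RNA sequencing of 24 fibroblast libraries in 8 groups of 3 and of 30 mouse lung samples, which were not analysed here. Primary wild-type fibroblasts from lungs of mice aged 6 to 8 weeks were grown in DMEM/F-12 with 10% serum at 5% O2. They spent 24 h in complete medium, in BCAA-free medium, or in BCAA-free medium to which BCAA or BCKA were returned, and then 48 h with 20 ng/mL TGF-β1 or with PBS. The extraction text that all samples of the series share names a kit for cells and, for tissue, heart in place of lung. The concentrations of the returned BCAA and BCKA are not given in the sources used here. Nothing there says that the 3 libraries of a group came from separate mice or cultures, so the p-values measure only the spread between these libraries, which may be technical.

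The deposited values are TPM, a length-scaled share of each library's transcripts, so the sequencing depth is unknown. Of the fibroblast marker list 9 genes were tested, and their summed level was 48461 to 53379.9 TPM in complete medium with TGF-β1 and 34304 to 40144 TPM with BCKA; 1 of the 9, Lum, passed the test described next, and it fell. Much of that sum is collagen, described below, with Col1a1 alone at 21669 to 24435 TPM in complete medium and 13663 to 18407 TPM with BCKA. Of the 9 markers 7 lay lower with BCKA and 2 higher. The part of these markers in other results was not tested, and in bulk RNA fewer cells of a type and less RNA per cell cannot be told apart. Markers of T and B cells (7 of 7), neutrophils and mast cells (7 of 7), endothelium (7 of 8), alveolar type 2 cells (6 of 7), airway epithelium (6 of 7) and macrophages (6 of 9) were below 1 TPM in all 6 libraries. Replicate 2 of complete medium with TGF-β1 stood apart, with correlations across genes of 0.98 to 0.985 with the other 5 libraries against 0.994 to 0.997 among those. Replicate 1 of BCAA-free medium with TGF-β1, which lies outside the comparison but enters the shared estimate of spread, correlated at 0.953 and 0.966 with its group, whose other libraries correlated at 0.994.

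With keto acids in place of amino acids, few transcripts of TGF-β1-stimulated fibroblasts differed from complete medium. Of 13084 genes tested, 80 passed an adjusted p of 0.05 (limma, 0.611% of genes), 53 of them higher with BCKA (0.405%) and 27 lower (0.206%). Of these, 5 rose and 2 fell by at least 2-fold, and the log2 changes ran from -1.09 for Ecrg4 to 1.42 for Sema7a. For all 80 the libraries of the 2 groups did not overlap, which held for 2095 of the 13084 genes. All log2 changes are on the log2(TPM + 1) scale, which understates changes of weakly expressed genes. At an unadjusted p under 0.05 there were 1157 genes. The 95% interval of the difference lay within 1 log2 unit of 0 for 12872 genes, 98.4% of those tested.

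Other media were set against the same complete-medium libraries, which the comparisons therefore share. BCAA-free medium with nothing returned gave 7895 passing genes (60.3%), with 35.5% of all genes called higher and 24.8% called lower. Return of the amino acids themselves gave 2 (0.0153%), the acute phase genes Hp and Lrg1, both lower, with 262 genes at an unadjusted p under 0.05. That count of 2 became 1 without replicate 3 of returned BCAA and 0 without any other library of either group, and 0 with libraries centred, with a pseudocount of 0.5 or with the compared groups alone. Of the 80 calls with BCKA, 36 passed in each of the 6 fits that left out 1 library of the comparison; the count was 48 without BCKA replicate 2 and 44 without BCKA replicate 3. In fits chosen after seeing the data, the count was 269 (161 higher, 108 lower) without replicate 1 of BCAA-free medium with TGF-β1 and 331 without the BCAA-free groups, with all 80 calls kept in both. Only 3 genes passed when the fit held the 6 compared libraries alone, among them Egln3 and Hmox1 of the 80. Centring the libraries on their medians gave a split of 44 higher and 33 lower.

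Smooth muscle and myofibroblast genes with BCKA lay near the complete-medium level. None of 23 tested members of the contractile list passed, their median log2 difference was 0.10, and all 23 intervals lay within 1 log2 unit of 0. Of the 23, 12 lay above 0 and 11 below. For 7 of them the 95% interval, which is not adjusted for the number of genes, lay wholly above 0. Intervals wholly below 0 were not counted. Without replicate 1 of BCAA-free medium, or without the BCAA-free groups, Actn1 passed, higher, and none passed lower. In BCAA-free medium 20 of the 23 fell and 1 rose, against 24.8% and 35.5% of all genes, with a median of -2.08. Acta2, smooth muscle α-actin, stood at 2316, 2438 and 2119.6 TPM with BCKA and at 2124, 2905 and 2045 TPM in complete medium. The groups overlapped, and the log2 difference was -0.03 (95% interval -0.36 to 0.31, adjusted p = 0.98). In BCAA-free medium Acta2 was at 109, 205 and 167 TPM. Tagln, an actin-binding protein of smooth muscle, was at 1725, 1894 and 1658 TPM with BCKA and 1421, 2158 and 1438 TPM in complete medium, again overlapping. Cnn1, calponin, averaged 156 ± 10 TPM (SD, n = 3) with BCKA and 146 ± 18.8 TPM in complete medium. For Tagln and Cnn1 the overlap came from complete replicate 2, and every BCKA library was above complete replicates 1 and 3. Without complete replicate 2 no contractile gene passed. The skeletal muscle actin Acta1 was at 52.4, 60.4 and 62.5 TPM with BCKA against 63.4, 77.7 and 66.2 TPM. Its libraries did not overlap, and the difference did not pass (log2 -0.24, 95% interval -0.47 to 0.00, adjusted p = 0.565).

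**Figure D1:**
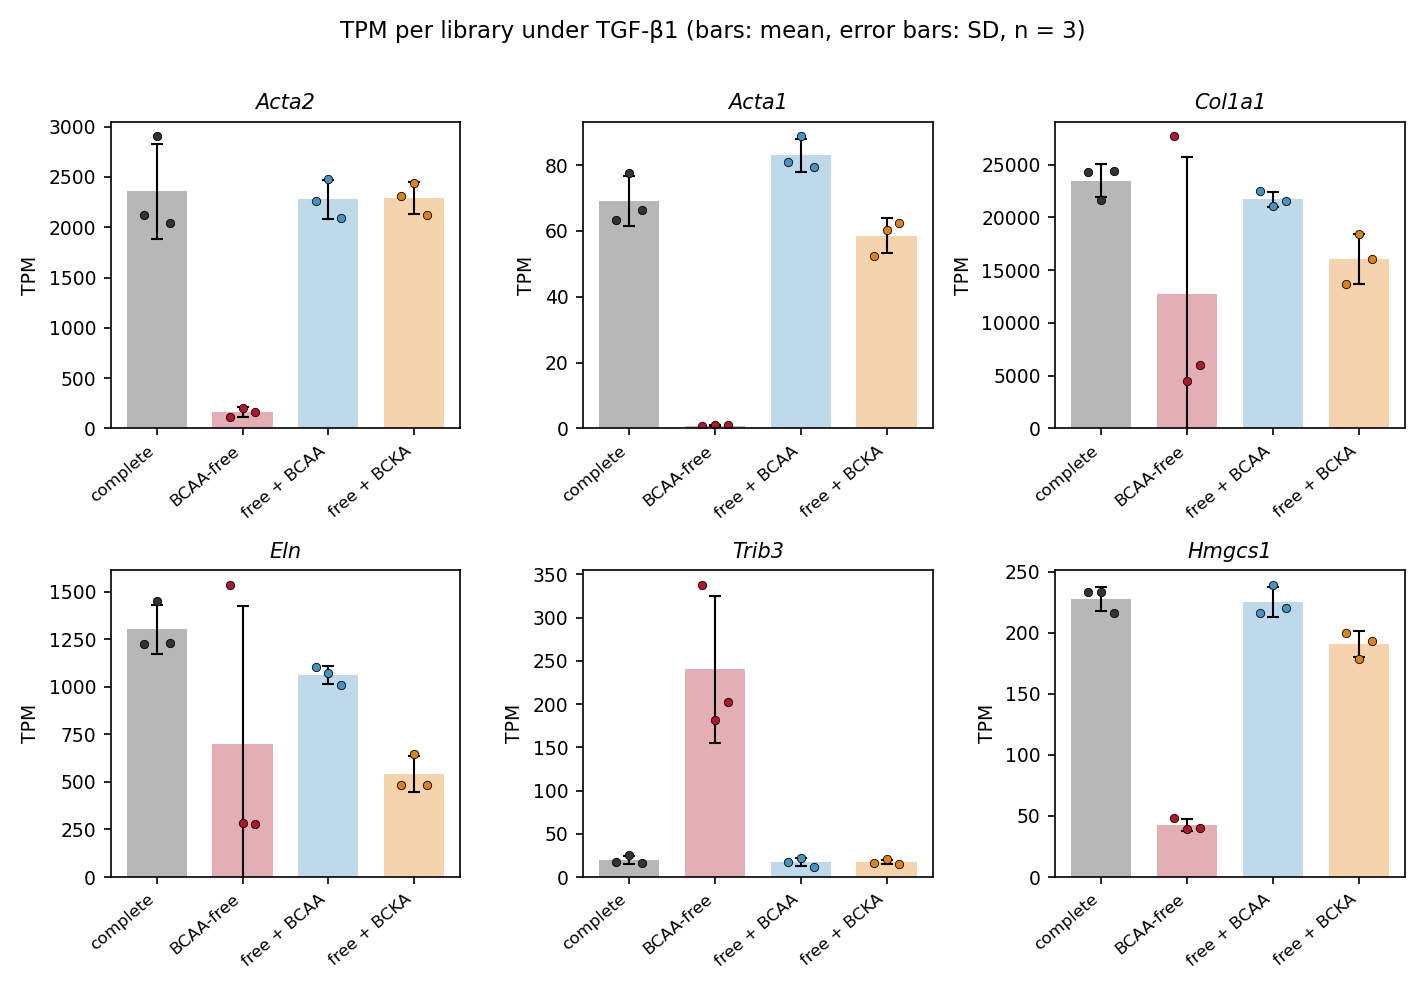
TPM of 6 genes in the 3 libraries of each TGF-β1 group (points; bars are means, error bars SD, axes from 0, where the lower error bars of Col1a1 and Eln in BCAA-free medium are cut off). Acta2 overlaps between BCKA and complete medium, while Eln with BCKA (485 to 648 TPM) lies below complete medium (1225 to 1449.6 TPM).

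Responses to amino acid shortage and the sterol pathway likewise lay close to complete medium. Of 39 shortage response genes, 1 passed, and it fell: the neutral amino acid carrier Slc1a5, at 139.6, 162 and 157 TPM against 201, 214 and 203 TPM (log2 -0.43, adjusted p = 0.0378). That call was lost without any 1 of the 6 libraries (adjusted p 0.0696 to 0.184) and with the replicate number as a block (adjusted p = 0.0584). In BCAA-free medium 34 of the 39 rose and 2 fell, against 35.5% and 24.8% of all genes. Trib3, a pseudokinase induced in the shortage response, was at 16.1, 20.4 and 15.3 TPM with BCKA and 17.9, 25.3 and 16.6 TPM in complete medium. Those ranges overlapped (log2 -0.19, 95% interval -0.65 to 0.28), against 338, 181 and 202 TPM in BCAA-free medium. Asns, asparagine synthetase, averaged 111 ± 7.61 TPM with BCKA and 128 ± 24.9 TPM in complete medium. None of 20 cytosolic aminoacyl-tRNA synthetases passed, with a median of 0.00, whereas 19 rose in BCAA-free medium, against 35.5% of all genes.

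None of 23 sterol synthesis genes passed (median -0.14), and all 23 fell in BCAA-free medium (median -2.15), against 24.8% of all genes. With BCKA 18 of the 23 lay below 0; without complete replicate 2, 22 did (median -0.13), and 1 of them passed, lower. Hmgcs1, an early enzyme of sterol synthesis, was at 199.9, 179 and 193 TPM with BCKA and at 234, 233 and 216 TPM in complete medium. Its groups did not overlap, and the difference did not pass (log2 -0.25, 95% interval -0.47 to -0.04, adjusted p = 0.445).

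**Figure D2:**
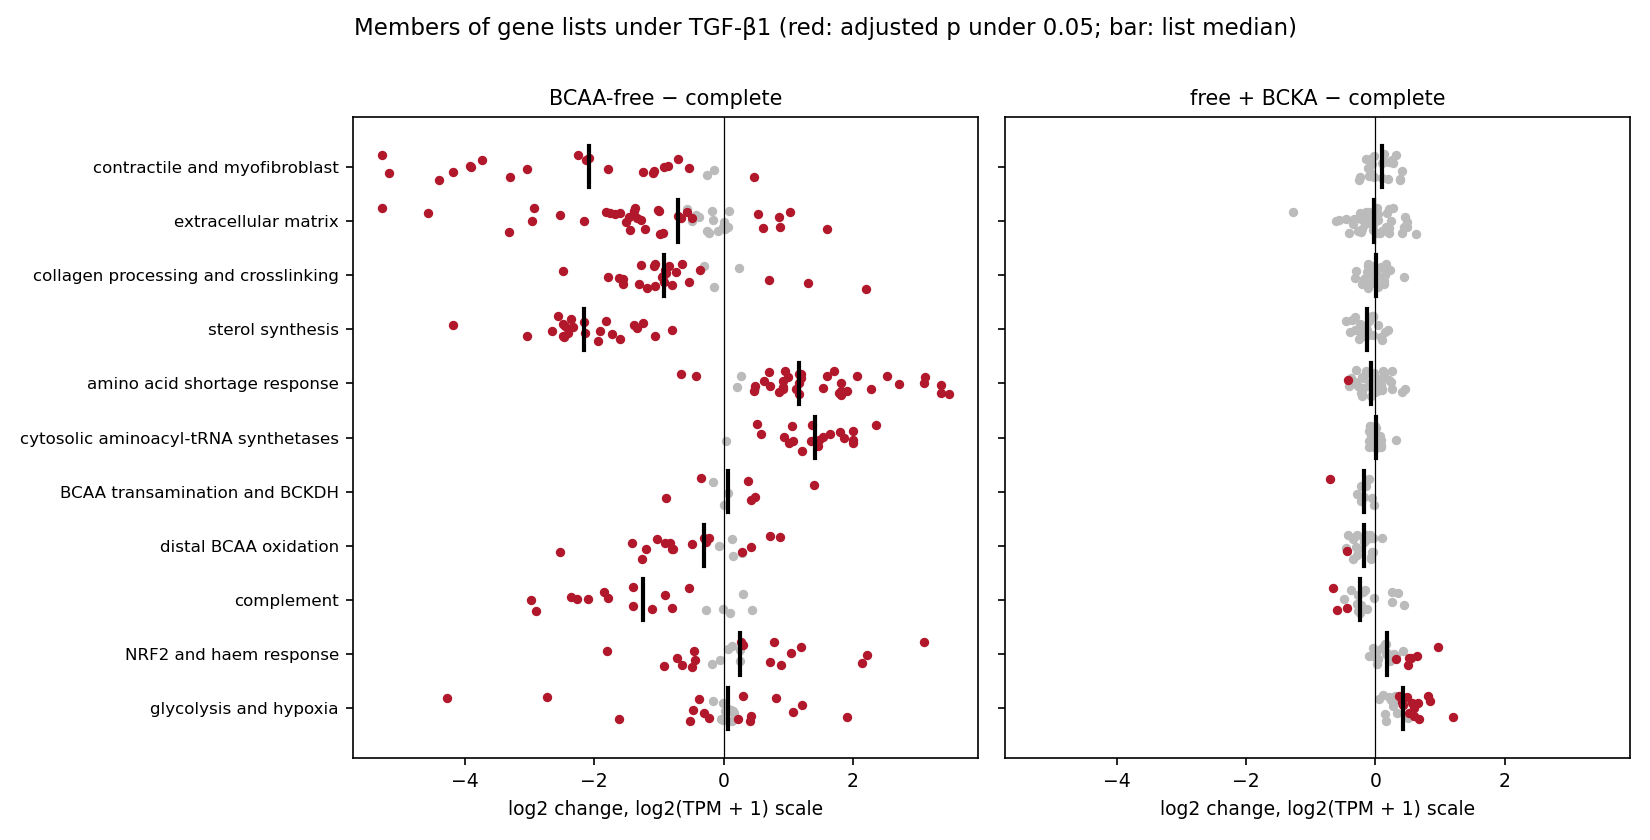
Log2 difference from complete medium under TGF-β1 for the tested members of 11 gene lists (points; red where the adjusted p is under 0.05; bars are list medians), in BCAA-free medium and with BCKA returned; both panels use the same complete-medium libraries. With BCKA, 14 of 27 members of the glycolysis and hypoxia list passed and none of the 23 contractile genes did.

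Several abundant matrix transcripts were lower with BCKA in all 3 libraries, and whether they passed depended on a library outside the comparison. Eln, elastin, was at 485, 648 and 485 TPM with BCKA against 1225, 1449.6 and 1230.5 TPM in complete medium, with no overlap and a log2 difference of -1.28 (95% interval -2.05 to -0.51, adjusted p = 0.185). Col1a1, a chain of collagen I, was at 13663, 18407 and 16042 TPM against 24346, 21669 and 24435 TPM, again with every BCKA library below every complete one (log2 -0.56, 95% interval -1.33 to 0.21, adjusted p = 0.689). Col3a1, collagen III, averaged 5019.5 ± 233 TPM against 7687 ± 527 TPM, and the matricellular protein Postn 1109 ± 104 TPM against 1467 ± 29 TPM, both without overlap. Groups that did not overlap were found for 2095 of the 13084 genes.

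The spread in that test was shared with BCAA-free medium, where Col1a1 was at 27677, 4495 and 6052 TPM and Eln at 1534, 284 and 279.8 TPM in replicates 1, 2 and 3. With all libraries in the fit none of the 47 extracellular matrix genes passed (median -0.02). Without replicate 1 of BCAA-free medium 5 passed, all lower: Eln (adjusted p = 4.88e-07), Col3a1 (0.000741), Col1a1 (0.00916), Postn (0.00642) and Col1a2. Without the BCAA-free groups 7 were lower, and Spp1 and Has2 were higher. With the 6 compared libraries alone Eln passed (adjusted p = 0.02).

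With the amino acids returned, Col1a1 was at 22479, 21043 and 21595 TPM and Eln at 1104, 1072 and 1009 TPM, above every BCKA library. The test of BCKA against returned BCAA gave log2 -0.45 for Col1a1 (adjusted p = 1) and -0.99 for Eln (adjusted p = 0.856). Fn1, fibronectin, was at 10604, 12093 and 11127 TPM with BCKA and 10886, 5148 and 9937 TPM in complete medium, overlapping. Of 28 genes for collagen processing and crosslinking none passed (median 0.01, all 28 intervals within 1 log2 unit of 0), and 22 fell in BCAA-free medium, against 24.8% of all genes.

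Genes of glycolysis and of the oxygen response were the list with the most members higher with BCKA. Cells adjust these genes through hypoxia-inducible factor (HIF), which prolyl hydroxylases of the Egln family mark for destruction when oxygen is present. The genes carry glucose into the cell, break it down to lactate, export the lactate and call in blood vessels. Of 27 members tested, 14 rose and none fell, against 0.405% of all genes called higher. All 27 log2 differences were above 0 (median 0.42, range 0.05 to 1.19), beside a median of 0.02 over all genes tested. In BCAA-free medium 8 of the 27 rose and 8 fell, shares near the 35.5% and 24.8% of all genes, and with amino acids returned none passed (median -0.05). The count of risen members was 9 without complete replicate 1, BCKA replicate 1 or BCKA replicate 3, 10 with libraries centred and 1 with the 6 compared libraries alone. Without any 1 library of the comparison, 7 members kept their call: Egln3, Slc2a1, Pdk1, Slc16a3, Pgam1, Ndrg1 and Vegfa.

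HIF is known to bind the core letters ACGTG. Upstream sequence of 4 of the risen genes is shown because it holds them: the 250 bases before the annotated start, from RefSeq on GRCm38.p6 (not the build named by the submitters), written 5′ to 3′ on the gene's strand with ACGTG or its reverse complement CACGT in capitals.
Egln3, chr12:54203875-54204124, minus strand: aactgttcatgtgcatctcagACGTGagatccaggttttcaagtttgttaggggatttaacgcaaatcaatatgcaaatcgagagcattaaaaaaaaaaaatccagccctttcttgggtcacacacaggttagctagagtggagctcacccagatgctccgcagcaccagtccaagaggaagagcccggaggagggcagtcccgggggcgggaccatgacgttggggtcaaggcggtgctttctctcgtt
Ankrd37, chr8:45999851-46000100, minus strand: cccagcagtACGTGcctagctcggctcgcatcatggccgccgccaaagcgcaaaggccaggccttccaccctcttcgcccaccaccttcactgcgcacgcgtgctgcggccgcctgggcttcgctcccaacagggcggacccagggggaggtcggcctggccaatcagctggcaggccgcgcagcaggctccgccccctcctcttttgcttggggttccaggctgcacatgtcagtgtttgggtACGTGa
Pfkfb3, chr2:11553930-11554179, minus strand: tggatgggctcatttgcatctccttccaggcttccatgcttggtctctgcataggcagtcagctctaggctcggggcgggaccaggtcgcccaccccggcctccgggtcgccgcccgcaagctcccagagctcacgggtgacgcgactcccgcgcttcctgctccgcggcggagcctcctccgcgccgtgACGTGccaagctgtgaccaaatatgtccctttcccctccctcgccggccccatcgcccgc
Bnip3, chr7:138909507-138909756, minus strand: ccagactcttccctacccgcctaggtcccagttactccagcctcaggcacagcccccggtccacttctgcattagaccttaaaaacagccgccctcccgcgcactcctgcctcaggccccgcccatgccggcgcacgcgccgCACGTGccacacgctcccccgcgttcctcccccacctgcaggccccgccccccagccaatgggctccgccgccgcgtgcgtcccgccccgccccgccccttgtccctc
In Bnip3 the match is the palindrome CACGTG, where the matches on both strands overlap. Over the same 250 bases and both strands, 7 of the 12 risen members found in the promoter table held ACGTG (58.3%), and 11 of the 25 list members found (44%). The letters were in the window of 21.8% of 10412 tested genes and 16.6% of all 27025 genes of the table. Among all genes called higher 14 of 38 held them (36.8%), and among those called lower 3 of 18 (16.7%). The 38 include the 12 risen list members, and the 14 include their 7. A match describes the letters in this window and no binding was measured.

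Egln3, the HIF prolyl hydroxylase that HIF itself induces, had the lowest adjusted p of the comparison. It was at 102, 100.3 and 102 TPM with BCKA and at 43.7, 39.2 and 49 TPM in complete medium, a log2 rise of 1.19 (SE 0.11, adjusted p = 6.17e-06). BCAA-free medium (57.6, 39.2 and 44 TPM) and returned BCAA (47.4, 44.8 and 43.2 TPM) were all below the 3 BCKA libraries. Egln1, another prolyl hydroxylase, chosen after its values were seen, was at 159, 156 and 154 TPM against 103, 104 and 102 TPM (log2 0.60, adjusted p = 8.8e-05).

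Along the glycolytic route, the glucose carrier Slc2a1 was at 320.3, 349.7 and 392 TPM with BCKA and at 214, 222 and 237 TPM in complete medium (log2 0.65, SE 0.08, adjusted p = 0.000199). Pfkfb3, which makes the activator of phosphofructokinase, was at 129, 123 and 138 TPM against 80.8, 54.2 and 90.2 TPM (log2 0.81, adjusted p = 0.0132). Neither pair of groups overlapped. For Pfkfb3 the adjusted p was 0.105 without complete replicate 2, 0.0506 without BCKA replicate 1 and 0.0958 without BCKA replicate 3, where complete replicate 2 was its lowest library. Pgam1, phosphoglycerate mutase, was at 295, 267 and 267 TPM against 189.8, 183 and 187 TPM (log2 0.56, adjusted p = 0.000537). Pdk1, the kinase that keeps pyruvate out of oxidation, was at 109.7, 99.5 and 105 TPM against 70.1, 65.4 and 70.6 TPM (log2 0.60, adjusted p = 0.000186). Slc16a3, the lactate exporter, was at 332, 344 and 339.9 TPM against 217, 230.0 and 225 TPM (log2 0.59, SE 0.07, adjusted p = 0.000186). In each of these genes all 3 BCKA libraries were above all 3 of complete medium.

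The more abundant glycolytic enzymes had smaller differences. Eno1, enolase, was at 2479, 2719 and 2689 TPM with BCKA and 1848, 2239 and 1876 TPM in complete medium (log2 0.41, adjusted p = 0.0378), and its call was lost without complete replicate 1 or 3 or BCKA replicate 2 or 3 (adjusted p 0.139 to 0.194). Pgk1, phosphoglycerate kinase, averaged 1009.6 ± 52.6 TPM against 824 ± 110.0 TPM and did not pass (log2 0.30, adjusted p = 0.187), but without complete replicate 2 it did (log2 0.41, adjusted p = 0.014). Ldha, lactate dehydrogenase, was at 1339.5, 1363 and 1356 TPM against 1043, 1355 and 1049.7 TPM (log2 0.25, 95% interval 0.04 to 0.45, adjusted p = 0.44). Aldoa, aldolase, also missed the threshold (log2 0.17, 95% interval -0.04 to 0.38). The hexokinase Hk1 passed with a log2 rise of 0.42, a call lost without complete replicate 1 or 2 or BCKA replicate 2 or 3 (adjusted p 0.102 to 0.172). The phosphofructokinase Pfkp passed with 0.36, lost without any 1 of the 6 libraries (adjusted p 0.0726 to 0.188), and the glucose carrier Slc2a3 with 0.52, lost without complete replicate 1 or 2 or BCKA replicate 1, 2 or 3 (adjusted p 0.118 to 0.316).

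Other genes of the oxygen response rose as well. Vegfa, the endothelial growth factor, was at 486, 465 and 430.0 TPM with BCKA and at 330.2, 312 and 336 TPM in complete medium (log2 0.50, adjusted p = 0.00163), and at 672, 623 and 766 TPM in BCAA-free medium. Ndrg1, a stress-induced gene, averaged 102 ± 4.24 TPM with BCKA, 66.8 ± 3.46 TPM in complete medium and 157 ± 21 TPM in BCAA-free medium (log2 0.60 with BCKA, adjusted p = 0.000603). Ankrd37, an ankyrin-repeat gene, rose by 0.84 from 1.13 ± 0.0676 to 2.82 ± 0.228 TPM (adjusted p = 0.00853, and 0.0513 without BCKA replicate 1). Bnip3, a mitophagy receptor, was at 324, 244 and 252 TPM against 156, 205 and 153 TPM (log2 0.67). Its groups did not overlap, and its adjusted p was 0.00567, and 0.0528 without complete replicate 1, 0.0543 without complete replicate 3 and 0.0534 without BCKA replicate 1.

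Other passing genes, chosen after their values were seen, were Gbe1, Gys1 and Ak4. Gbe1, the glycogen branching enzyme, was at 66.2, 60.4 and 59.5 TPM with BCKA and 38.9, 41 and 35.1 TPM in complete medium (log2 0.68, adjusted p = 0.000366). Gys1, glycogen synthase, was at 155, 180.0 and 166 TPM against 118, 91.6 and 124 TPM (log2 0.59, adjusted p = 0.0015). Neither overlapped. Ak4, a mitochondrial adenylate kinase, rose by 0.69, from 28.1 ± 3.05 to 45.6 ± 0.69 TPM (adjusted p = 0.000641). In BCAA-free medium each of these genes also lay above complete medium. Gbe1 was at 48.6, 55.6 and 48.5 TPM there, below BCKA. Gys1 was at 150, 160 and 154 TPM, overlapping BCKA, and Ak4 at 60.7, 60.4 and 62.3 TPM, above BCKA.

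**Figure D3:**
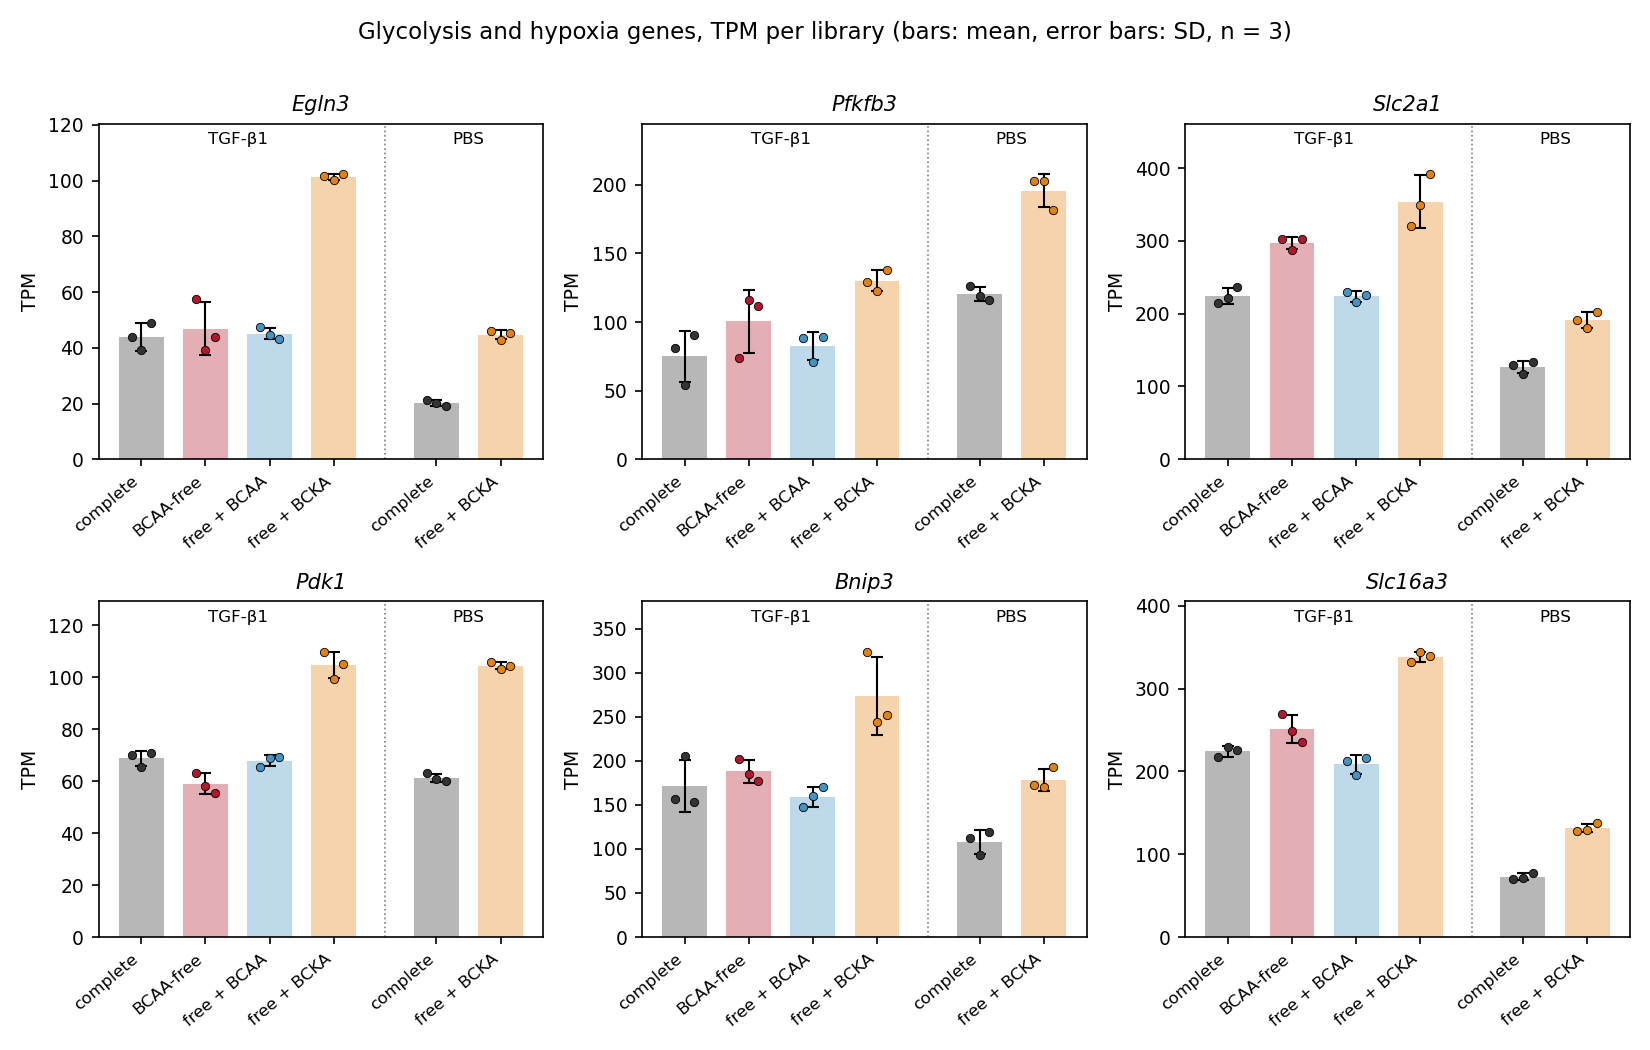
TPM of 6 glycolysis and hypoxia genes per library (points; bars are means, error bars SD, n = 3), in 4 media with TGF-β1 and in complete medium and with BCKA under PBS. Under TGF-β1 all 3 BCKA libraries lie above all 3 of complete medium for each gene; for Egln3 the BCKA libraries sit at 100.3 to 102 TPM and returned BCAA at 43.2 to 47.4 TPM.

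The same comparison in cells given PBS used other libraries. There 18 of the 27 glycolysis and hypoxia genes rose with BCKA and none fell (median 0.58), against 0.726% of all genes called higher. Egln3 was at 45.9, 42.8 and 45.3 TPM with BCKA and 21.3, 20.1 and 19.1 TPM in complete medium (log2 1.11, adjusted p = 2.27e-06). The test of the difference between TGF-β1 and PBS gave 0.09 for Egln3 (95% interval -0.24 to 0.41). Pgk1 averaged 584 ± 36.6 TPM with BCKA and 303 ± 4.55 TPM in complete medium under PBS (log2 0.94), and its difference under TGF-β1 was smaller by 0.64 (log2 -0.64, adjusted p = 0.0242). In a test of BCKA against returned BCAA under TGF-β1, which shares the BCKA libraries with the comparison above, 35 genes passed (0.268%), 29 higher and 6 lower (0.0459%). Of the glycolysis and hypoxia genes 11 of the 27 were higher and none lower, where 0.222% of all genes were called higher. Egln3 differed there by 1.15 (adjusted p = 9.38e-06) and Slc16a3 by 0.70 (adjusted p = 1.41e-05).

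Antioxidant and haem-response genes, many of them targets of the transcription factor NRF2, rose in part. Of 23 tested members 6 rose and none fell (median 0.17), against 0.405% of all genes called higher: Hmox1, Abcc1, Gclc, Txnrd1, Gclm and Srxn1. The count was 2 without complete replicate 2, 3 without BCKA replicate 1, 3 without BCKA replicate 2 and 1 without BCKA replicate 3. Hmox1, the haem-degrading oxygenase, was at 209, 181 and 222 TPM with BCKA and at 102, 106 and 103 TPM in complete medium (log2 0.97, SE 0.15, adjusted p = 0.00112). The groups lay apart, and Hmox1 passed in each of those fits. BCAA-free medium was at 319, 549.6 and 561 TPM and returned BCAA at 115, 104 and 116 TPM, the latter below BCKA (log2 difference 0.86, adjusted p = 0.00697).

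The other passing members are enzymes and carriers of the glutathione and thioredoxin systems. Gclm, a subunit of the enzyme that begins glutathione synthesis, was at 101, 90.6 and 104 TPM against 70.3, 67.6 and 69.4 TPM (adjusted p = 0.00447, and 0.0511 without BCKA replicate 3). Txnrd1, thioredoxin reductase, was at 246, 208 and 249 TPM against 173, 142 and 178 TPM (adjusted p = 0.0085, and 0.064 without complete replicate 2, 0.0541 without BCKA replicate 1 and 0.0839 without BCKA replicate 3). Neither overlapped. Nqo1, another NRF2 target, averaged 36.1 ± 1.92 TPM with BCKA and 31 ± 4.85 TPM and did not pass (adjusted p = 0.849). With returned BCAA, log2 differences from complete medium were 0.32 for Abcc1, 0.28 for Gclc, 0.25 for Txnrd1 and 0.21 for Gclm. They were 0.13 for Srxn1 and 0.11 for Hmox1, and none passed. BCKA lay above returned BCAA by 0.32, 0.27, 0.26, 0.29, 0.18 and 0.86 in the same order. Of the 23 members only Hmox1 passed in that test. Under PBS none of the 23 passed (median 0.17), with Hmox1 at 118, 112 and 130.3 TPM with BCKA and 110.2, 94.5 and 116 TPM in complete medium. The test of the difference between TGF-β1 and PBS did not pass for Hmox1 (log2 0.80, adjusted p = 0.192).

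Several genes outside these lists had large rises. Sema7a, a membrane-anchored semaphorin, was at 21.8, 21.8 and 28.2 TPM with BCKA and at 9.67, 5.37 and 10.6 TPM in complete medium (log2 1.42, SE 0.20, adjusted p = 0.000603). Every BCKA library was above every complete one, and returned BCAA was at 11, 8.74 and 8.3 TPM. Gpr35, a G-protein-coupled receptor, was at 16.9, 19.6 and 19.6 TPM against 8.36, 5.58 and 8.98 TPM (log2 1.21, adjusted p = 0.000609), and under PBS it rose from 3.71 ± 0.586 to 7.49 ± 1.16 TPM (adjusted p = 0.0112). Unc13a, a vesicle priming factor, rose by 0.78, from 43.4 ± 9.23 to 74.2 ± 6.09 TPM. Prl2c2, a proliferin with near-identical copies that make its count uncertain, rose by 0.82, from 11.2 ± 0.946 to 21.1 ± 5.26 TPM. Apln, the peptide apelin, was at 50.4, 49.8 and 55.3 TPM against 34, 29.2 and 28.6 TPM (adjusted p = 0.0204), a call lost without complete replicate 2 or 3 or BCKA replicate 1, 2 or 3 (adjusted p 0.0559 to 0.137), and under PBS it rose by 1.10 (adjusted p = 0.000227). Dusp4, a phosphatase of MAP kinases, rose by 0.90 (adjusted p = 0.0412, and 0.0713 without complete replicate 1, 0.316 without complete replicate 2, 0.205 without BCKA replicate 2 and 0.235 without BCKA replicate 3). Reep1, a shaper of the endoplasmic reticulum, rose by 0.73 (adjusted p = 0.0204, and 0.144 without complete replicate 1, 0.129 without BCKA replicate 1 and 0.0988 without BCKA replicate 2).

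Of 34 TGF-β target genes 2 rose and none fell (median 0.15), against 0.405% of all genes called higher. Ccn2, connective tissue growth factor, was at 1603, 1481 and 1548 TPM with BCKA and at 1041, 1085 and 1054 TPM in complete medium (log2 0.54, SE 0.10, adjusted p = 0.00425). Returned BCAA was at 1142, 992 and 1159 TPM, below every BCKA library. Jun, a subunit of the AP-1 transcription factor, was at 67.6, 68 and 71.8 TPM against 44.5, 48.1 and 50.2 TPM (log2 0.53, adjusted p = 0.000641).

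Angptl4, a secreted inhibitor of lipoprotein lipase and the passing member among 29 fatty acid oxidation and PPAR genes, was at 119, 126 and 134 TPM against 78.2, 77.5 and 74.2 TPM (log2 0.72, adjusted p = 0.000199). Ero1a, an oxidase of protein folding and the passing member among 26 folding genes, rose by 0.42 (adjusted p = 0.0416), a call lost without complete replicate 1 or 3 or BCKA replicate 1, 2 or 3 (adjusted p 0.0738 to 0.202). Krt19, a keratin, was at 2.38, 2.53 and 2.07 TPM against 0.387, 0.773 and 0.577 TPM (log2 1.08, adjusted p = 0.0085, and 0.0713 without complete replicate 1 and 0.0636 without BCKA replicate 2). It was the passing member of 7 mesothelial markers, whose summed level was 38.1 to 45.5 TPM with BCKA and 44.7 to 45.7 TPM in complete medium.

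Among the genes that were lower with BCKA was a regulator of amino acid breakdown. Klf15, a transcription factor known to drive BCAA-degrading genes, was at 11.8, 11.1 and 12 TPM with BCKA and at 19.9, 18.9 and 20 TPM in complete medium, a fall of 0.71 (log2 -0.71, SE 0.12, adjusted p = 0.00425). The groups lay apart, and BCAA-free medium (14.7, 16.7 and 21.1 TPM) and returned BCAA (17.1, 15.2 and 18.9 TPM) were also above every BCKA library. Its part in the levels of the BCAA-degrading genes was not tested. The test of BCKA against returned BCAA did not pass for Klf15 (log2 -0.51, adjusted p = 0.115). Klf15 was the passing member of 9 genes for BCAA transamination and the BCKA dehydrogenase, all of which lay below 0 (median -0.17). Without complete replicate 2, 7 of them lay below 0 (median -0.06). Bcat1 averaged 50.6 ± 1.93 TPM with BCKA and 51.4 ± 3.49 TPM in complete medium (log2 -0.02, 95% interval -0.29 to 0.25), against 139 ± 32.9 TPM in BCAA-free medium. Bckdk averaged 66.9 ± 3.15 and 69.3 ± 5.9 TPM (log2 -0.05, 95% interval -0.28 to 0.19). Ppm1k averaged 12.7 ± 1.64 and 14.9 ± 0.292 TPM (log2 -0.23, 95% interval -0.48 to 0.03).

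Of 21 enzymes of the later steps of BCAA oxidation, 1 passed and 20 lay below 0 (median -0.17). Without complete replicate 2, 15 lay below 0 (median -0.12). Oxct1, which activates ketone bodies, a product of leucine, was at 72.8, 65.6 and 73.5 TPM with BCKA and at 96.8, 96.4 and 96 TPM in complete medium (log2 -0.44, adjusted p = 0.00634, and 0.0712 without BCKA replicate 2). Ivd, the leucine-pathway dehydrogenase, averaged 34.4 ± 1.89 TPM against 44.2 ± 1.81 TPM (log2 -0.35, adjusted p = 0.145), and it passed without replicate 1 of BCAA-free medium in the fit (adjusted p = 0.00291). Cdo1, which begins the breakdown of cysteine, was at 14.5, 11.2 and 16.9 TPM against 22.7, 25.2 and 26.4 TPM (log2 -0.78, adjusted p = 0.00116). It did not overlap, and it was also below returned BCAA (22, 20.1 and 22.1 TPM, log2 -0.58, adjusted p = 0.0361). BCAA-free medium lay below BCKA, with Cdo1 at 3.95, 4.24 and 3.35 TPM and Oxct1 at 32.9, 33.9 and 40.5 TPM.

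**Figure D4:**
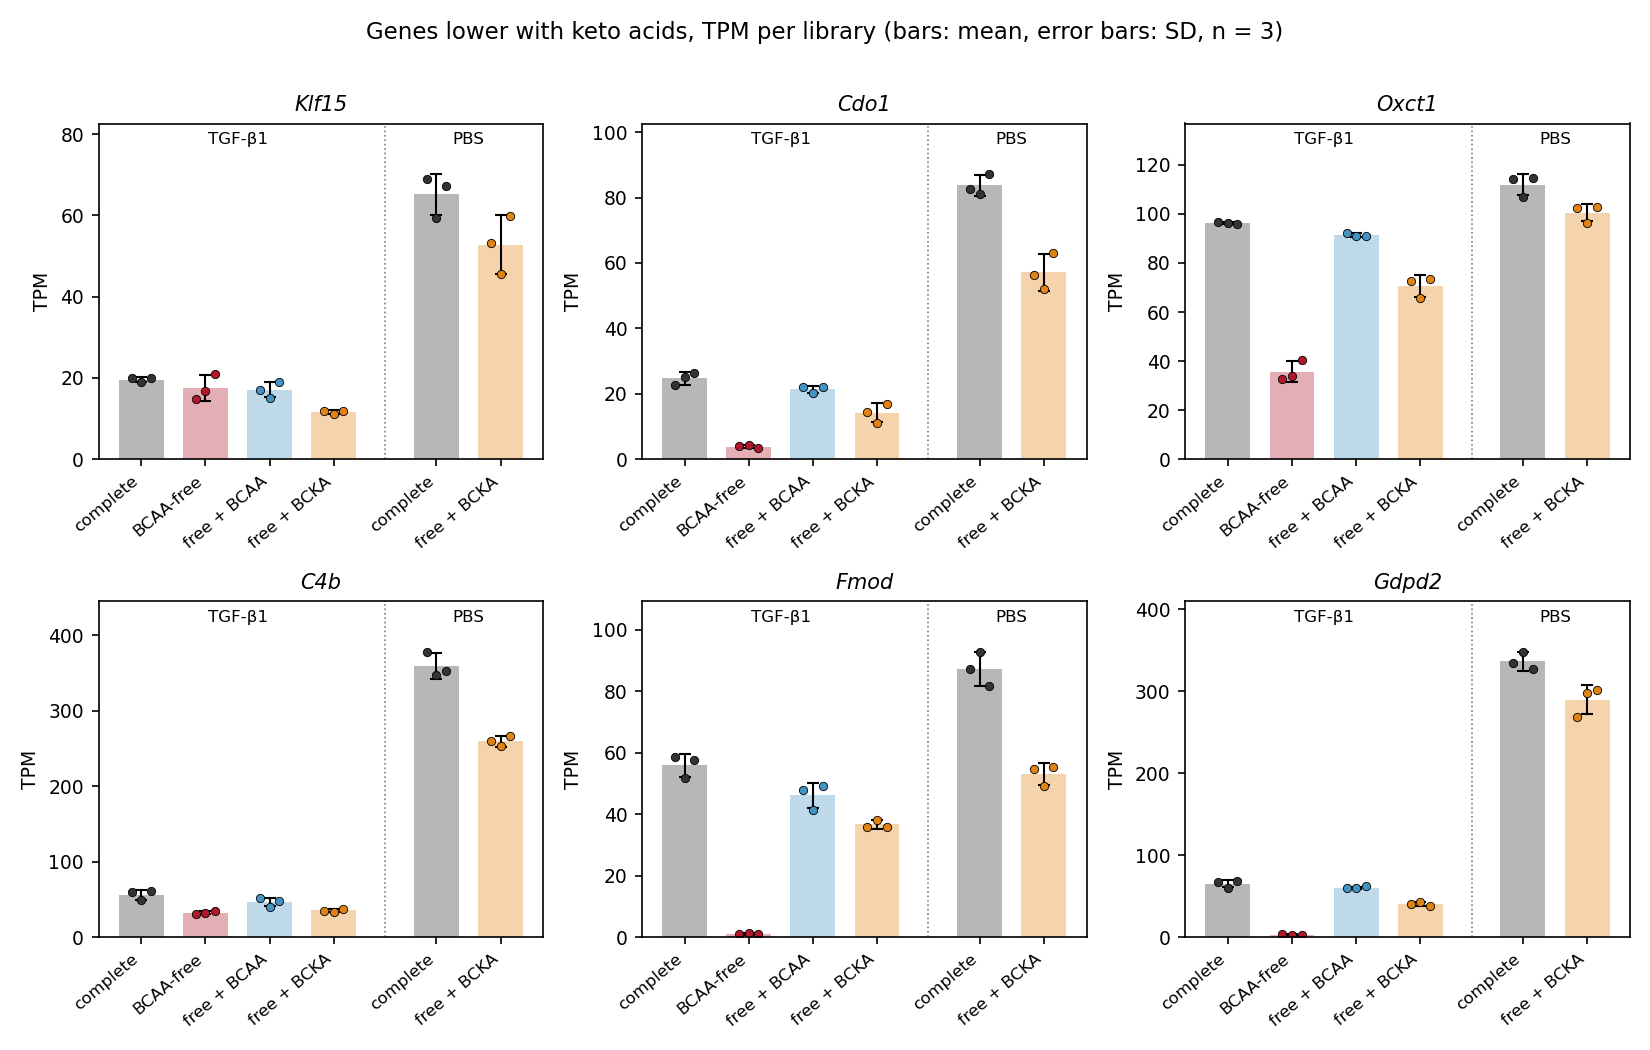
TPM of 6 genes that fell with BCKA under TGF-β1, per library (points; bars are means, error bars SD, n = 3), in 4 media with TGF-β1 and in complete medium and with BCKA under PBS. For Fmod the BCKA libraries (35.9 to 38.2 TPM) lie below complete medium (51.6 to 58.6 TPM) under TGF-β1.

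Complement and collagen-binding proteoglycans held further falls. Of 18 complement genes 3 fell and none rose (median -0.23), against 0.206% of all genes called lower. C4b, a component of the classical pathway whose reads may be shared with its near copy C4a, was at 34.9, 33.6 and 37.5 TPM with BCKA and at 59.3, 48.5 and 60.9 TPM in complete medium (log2 -0.65, adjusted p = 0.000641). Cfb, factor B of the alternative pathway, was at 35, 30 and 32.8 TPM against 50.4, 48.2 and 51 TPM (log2 -0.60, adjusted p = 0.00163). Neither overlapped. C2, a protease subunit of the classical pathway, had log2 -0.44 (adjusted p = 0.00857, and 0.0662 without complete replicate 3, 0.0738 without BCKA replicate 2 and 0.0528 without BCKA replicate 3). The central component C3 was at 912, 848 and 928 TPM against 1043, 650.3 and 1102 TPM, overlapping. That overlap came from complete replicate 2, and the BCKA libraries lay below complete replicates 1 and 3. C3 passed in none of the alternative fits (limma, lowest adjusted p 0.053). Under PBS C4b fell by 0.47 (adjusted p = 0.0108) and Cfb by 0.47 (adjusted p = 0.0113). In BCAA-free medium with TGF-β1, C4b was at 30.2, 31.4 and 34.3 TPM, overlapping BCKA. Cfb was lower there than with BCKA, at 15.9, 13 and 12.4 TPM. With returned BCAA and TGF-β1, Cfb was at 44.7, 34.5 and 39.3 TPM and C2 at 64.2, 53.6 and 55.8 TPM, both overlapping BCKA. Log2 differences of returned BCAA from complete medium were -0.27 for C4b, -0.34 for Cfb and -0.38 for C2. BCKA lay below returned BCAA by 0.38, 0.26 and 0.06 in the same order. None of the 18 complement genes passed in either test.

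Of 9 small leucine-rich proteoglycans tested, which space collagen fibrils, 2 fell and none rose (median -0.31), against 0.206% of all genes called lower. Fmod, fibromodulin, was at 35.9, 38.2 and 35.9 TPM with BCKA and at 58.6, 51.6 and 57.5 TPM in complete medium (log2 -0.59, adjusted p = 0.00191). Lum, lumican, was at 3.17, 2.04 and 2.99 TPM against 5.22, 6.74 and 4.44 TPM (log2 -0.79, adjusted p = 0.00736, and 0.0675 without complete replicate 2 and 0.084 without BCKA replicate 2). Neither overlapped, and both fell under PBS, Fmod by 0.71 (adjusted p = 0.00018) and Lum by 0.85 (adjusted p = 0.0024). In BCAA-free medium with TGF-β1 both were below every BCKA library. Fmod was at 0.966, 1.41 and 0.891 TPM there and Lum at 0.614, 0.848 and 1.15 TPM. With returned BCAA and TGF-β1, Fmod was at 47.7, 41.5 and 49.2 TPM and Lum at 3.87, 4.39 and 4.3 TPM. Both lay between BCKA and complete medium. Dcn, decorin, averaged 34.1 ± 3.56 TPM against 48.3 ± 5.11 TPM (log2 -0.49, adjusted p = 0.664), and it passed without replicate 1 of BCAA-free medium in the fit (adjusted p = 0.00134).

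Secreted factors and single genes completed the falls. Lrg1, an acute phase protein, was at 2.51, 1.88 and 2.99 TPM with BCKA, 2.64, 1.79 and 3.23 TPM with BCAA and 5.42, 6.31 and 5 TPM in complete medium, so that both add-back media lay below complete medium. With BCKA it fell by 0.93 (adjusted p = 0.00187). Hp, haptoglobin, was at 16.1, 11.4 and 14.1 TPM, 12.6, 12.6 and 12.9 TPM and 22.1, 24.9 and 23.3 TPM in the same order; its fall of 0.73 with BCKA had an adjusted p of 0.00703, and 0.0828 without BCKA replicate 2. Gdpd2, a phosphodiesterase of glycerophospholipids, was at 40.4, 42.3 and 38.4 TPM with BCKA and 66.7, 60.2 and 68.6 TPM in complete medium (log2 -0.68, adjusted p = 0.00163), and it was also below returned BCAA (log2 -0.57, adjusted p = 0.0165). Art4, an ADP-ribosyltransferase family member, fell by 0.69, from 26.5 ± 2.28 to 16.1 ± 2.43 TPM (adjusted p = 0.000641). Ecrg4, a secreted peptide precursor, fell by 1.09, from 7.3 ± 1.5 to 2.92 ± 0.906 TPM. The chemokine Ccl9 fell by 1.02, from 7.34 ± 2.09 to 3.06 ± 0.575 TPM. With returned BCAA, Ecrg4 was at 4.98, 2.68 and 4.41 TPM, below complete medium and overlapping BCKA. Its log2 difference of returned BCAA from complete medium was -0.74 and did not pass. Ccl9 was at 4.64, 5.62 and 5.43 TPM with returned BCAA, between BCKA and complete medium. BCAA-free medium lay lower still, with Gdpd2 at 3.49, 2.24 and 1.93 TPM and Art4 at 4.04, 3.82 and 4.5 TPM. Ecrg4 and Ccl9 were at or below 0.141 TPM there, Lrg1 at or below 0.424 TPM and Hp at or below 1.62 TPM. Pycard, the inflammasome adaptor, fell by 0.78 (adjusted p = 0.0171), a call lost without complete replicate 1 or 2 or BCKA replicate 1, 2 or 3 (adjusted p 0.0614 to 0.13). Bmp3, the passing member of 25 BMP and activin genes, fell by 0.79 (adjusted p = 0.0481), a call lost without complete replicate 1 or 3 or BCKA replicate 2 or 3 (adjusted p 0.135 to 0.282).

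The comparison of BCKA with complete medium was set beside its counterpart under PBS, where 164 genes passed (1.25%), 95 higher and 69 lower. The count under PBS was 87 to 103 when any 1 of its 6 libraries was left out. Of the 53 genes called higher under TGF-β1, 49 had the same sign under PBS and 22 passed there in the same direction. Of the 27 called lower, 22 had the same sign and 8 passed in the same direction. The genes that passed in the same direction under both were thus 30 of the 80 and 30 of the 164. Over all genes tested the signs matched for 6763 of 13084.

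Alpl, tissue-nonspecific alkaline phosphatase, passed in opposite directions. Under TGF-β1 it was at 30.3, 23.1 and 25.2 TPM with BCKA and 39.5, 35.3 and 39.2 TPM in complete medium, and under PBS at 28.1, 28.8 and 28 TPM and 17, 18.5 and 18.3 TPM. The log2 differences were -0.53 and 0.63, and the test of the difference between them gave -1.16 (adjusted p = 0.001). The call under TGF-β1 (adjusted p = 0.0221) was lost without complete replicate 1 or 3 or BCKA replicate 2 or 3 (adjusted p 0.0996 to 0.192). Under PBS, Alpl was at 25.5, 26.5 and 26.1 TPM with returned BCAA and at 34.5, 39.6 and 39.9 TPM in BCAA-free medium. Both lay above complete medium, so higher Alpl under PBS was not particular to BCKA. Those media were not tested against complete medium under PBS. In all, the difference between media differed between TGF-β1 and PBS for 27 genes (0.206%), 9 upward (0.0688%) and 18 downward (0.138%). That count was 14 to 22 when any 1 of the 12 libraries was left out, and 837 genes had an unadjusted p under 0.05.

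**Figure D5:**
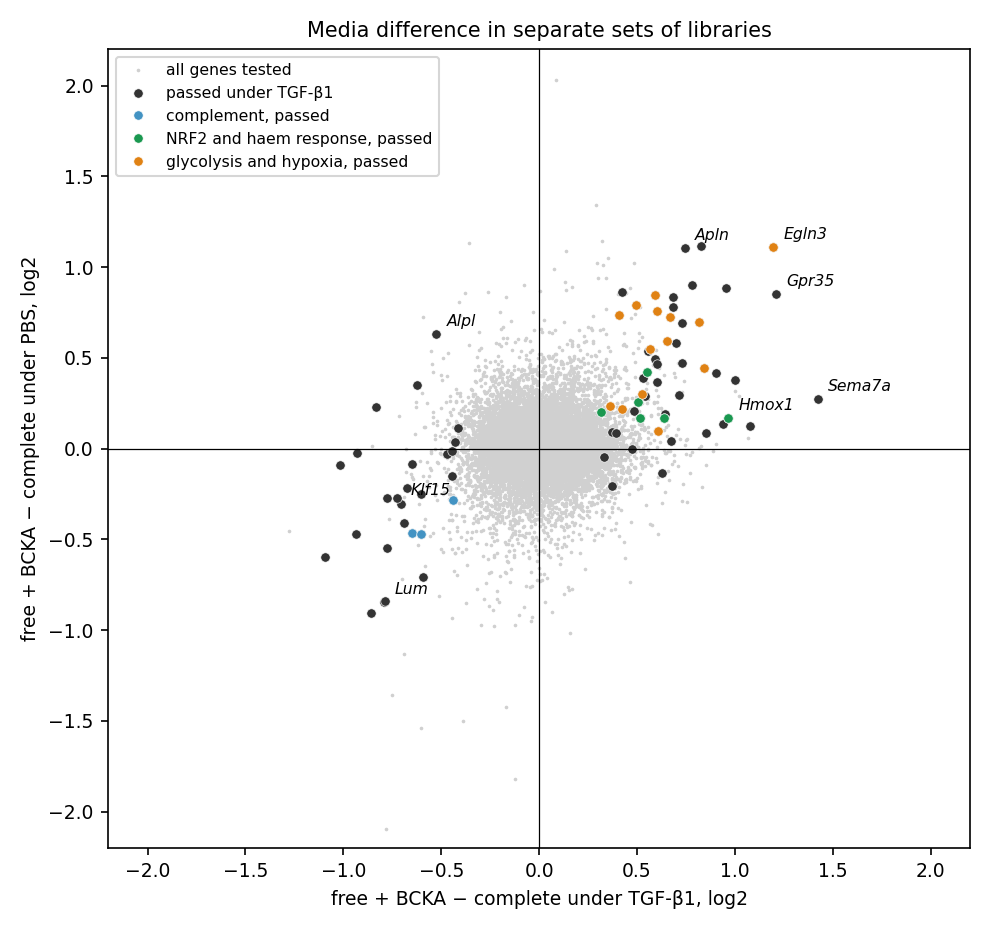
Log2 difference of BCKA from complete medium under TGF-β1 (horizontal axis) and under PBS (vertical axis) for the tested genes, with genes that passed under TGF-β1 in black or, for members of 3 lists, in colour; the axes use separate libraries. Egln3 lies above 1 on both axes, Hmox1 lies at 0.97 and 0.17, and Alpl lies below 0 under TGF-β1 and above 0 under PBS.

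Lists for cell division and several metabolic routes gave no calls. None of 35 mitosis genes, 33 DNA replication genes, 29 leucine sensing and mTORC1 genes, 15 fatty acid synthesis genes or 21 serine and one-carbon genes passed. Of 50 cytosolic ribosomal protein genes none passed, but all 50 lay below 0 (median -0.27), and without complete replicate 2 the median was -0.08 with 45 below 0. Their summed level was 36605 to 54592 TPM in complete medium and 33338 to 38375 TPM with BCKA. Of 38 nuclear oxidative phosphorylation genes none passed and 37 lay below 0 (median -0.19), and without complete replicate 2 the median was -0.03 with 24 below 0.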

How the data were processed

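RNA of 24 mouse lung fibroblast libraries (8 groups of 3) had been sequenced, and the deposited values are TPM per gene made by the authors. The submitters' processing notes name the mm39 build and the tools HISAT2, featureCounts, Subread, Trim Galore, FastQC and DESeq2, with no role for any of them, and those sources do not give the annotation. Depth is therefore unknown, and a TPM depends on the other genes of its library. The lung tables were not used here.

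Genes with TPM of at least 1 in at least 3 of 24 libraries (13084 of 26264) were tested on log2(TPM + 1) with limma 3.58.1 in R 4.3.3, 1 fit over all 8 groups with a mean-variance trend, two-sided, with Benjamini-Hochberg adjustment over all genes tested and a threshold of 0.05. Groups came from the labels. Tested on simulated data for the main comparison (13084 genes, 5 runs, 200 changed genes each), the fit recovered 85% of 2-fold changes and 47.2% of changes of 0.6 log2, with 5.71% false calls. The simulated noise was independent, with the same spread for a gene in every group and no outlying library. These rates may therefore not hold for the real libraries.

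Named genes were the 10 largest passing rises and falls whose libraries did not overlap and whose mean reached 5 TPM in either group, up to 2 passing members per direction and list, 4 per direction of the PBS and difference tests, and fixed genes of the pathways; others were chosen after their values were seen, and 1 named gene is not reported here. Members and lists were chosen with earlier results of these data known. Alternatives were other pseudocounts and filters, centring, the compared groups alone, array weights, the replicate block and each library left out; 3 fits without outlying libraries or the BCAA-free groups were added after seeing the data. Same-numbered PBS libraries correlated in their deviations at 0.16, 0.12 and 0.25, which does not settle whether the number pairs them. The blocked count there is given in the closing section.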

Additional observations from a re-analysis of the deposited data

Results flagged for a closer look

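For 11 of the named genes the difference between BCKA and complete medium under TGF-β1 differed from that under PBS by the test of the difference itself (limma, adjusted over all 13084 genes; negative values mean a lower difference under TGF-β1). Each value below is a log2 difference of differences, on the log2(TPM + 1) scale.

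Among secreted factors and receptors, Fgf23, a phosphate-regulating hormone, had -1.94 (adjusted p = 0.000585), with 0.09 under TGF-β1 and 2.03 under PBS, where it was at 31.9, 41.5 and 31 TPM with BCKA and 7.29, 9 and 6.9 TPM in complete medium. Tnfsf11, the cytokine RANKL, had -1.49 (adjusted p = 0.00358), with -0.36 and 1.13. Tnfrsf9, a receptor of the TNF family, had -1.05 (adjusted p = 0.0182), with 0.29 and 1.34. Nxph4, a neurexophilin, had -0.824 (adjusted p = 0.0168), with 0.32 and 1.14.

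Dpt, dermatopontin of the matrix, had 1.11 (adjusted p = 0.00448), with -0.39 under TGF-β1 and -1.50 under PBS. Clec3b, tetranectin, had 1.70 (adjusted p = 0.000585), with -0.12 and -1.82; under TGF-β1 its complete-medium libraries were at 0.145, 0 and 0.18 TPM, near 0. Alpl had -1.16 (adjusted p = 0.001), with passing differences of opposite sign as described above. Pgk1 of glycolysis had -0.642 (adjusted p = 0.0242), with 0.30 and 0.94. The homeobox gene Gbx2 had -1.22 (adjusted p = 0.00497), with -0.41 and 0.81. Eepd1, a nuclease family member, had 0.932 (adjusted p = 0.0256), with 0.15 and -0.78. Calml4, a calmodulin-like protein, had -0.971 (adjusted p = 0.011), with -0.62 and 0.35.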

How the results depend on the processing

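None of the 56 named genes that passed under TGF-β1 changed sign under the alternatives run (54 could be tested with the filter at TPM 5). Their libraries did not overlap between the compared groups, so most of these settings could not have reversed a sign. The counts of passing genes moved as follows. With the compared groups alone in the fit, BCKA against complete medium gave 3 genes under TGF-β1 and 507 under PBS, the difference between those 45, returned BCAA against complete medium 0, BCKA against returned BCAA 96, and BCAA-free against complete medium 4795. With array weights, whose estimation did not converge, the first 5 counts were 975, 1280, 637, 17 and 535. A pseudocount of 0.1 gave 109 under PBS and 15 for the difference, and returned BCAA gave 0 with a pseudocount of 0.5, 1 with no filter and 0 with libraries centred. In fits chosen after seeing the data, leaving out replicate 1 of BCAA-free medium with TGF-β1 gave 269, 354, 84 and 86 (returned BCAA stayed at 2). Leaving out that library and complete replicate 2 with TGF-β1 gave 197, 491, 85, 1 and 126, and leaving out the BCAA-free groups gave 331, 402, 111, 1 and 106. Leaving out 1 library gave 44 to 69 under TGF-β1, 87 to 103 under PBS, 14 to 22 for the difference, 0 to 1 for returned BCAA, 16 to 26 for BCKA against returned BCAA, and 7322 to 8626 for BCAA-free medium; the cause of these shifts was not tested. Depth is unknown from TPM, so the counting error of weak genes could not be set.

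With the replicate number as a block, 80 genes passed under TGF-β1 (52 higher, 28 lower) and 165 under PBS, 27 for the difference, 2 for returned BCAA, 36 for BCKA against returned BCAA and 7926 for BCAA-free medium, and 75 of the 80 calls were kept. Same-numbered libraries of the compared TGF-β1 groups correlated in their deviations at -0.16, -0.13 and 0.20. These values do not settle whether the number pairs them.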

Other observations

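Interferon-response genes were among the genes lower with BCKA under PBS. Of 39 tested, 7 fell and none rose there (median -0.56), where 0.527% of all genes were called lower. Under TGF-β1 none of the 39 passed (median -0.15), and the test of the difference between TGF-β1 and PBS gave 0 members higher and 0 lower. Ifi27l2a, an interferon-induced membrane protein, was at 9.19, 7.84 and 9.66 TPM with BCKA and 58.5, 30.6 and 39 TPM in complete medium under PBS (log2 -2.10, adjusted p = 4.96e-05), and at 5.24, 4.08 and 4.49 TPM and 5.46, 11.6 and 9.79 TPM under TGF-β1 (log2 -0.78, adjusted p = 0.285). Ifit3b, whose reads may be shared with its near copy Ifit3, fell by 1.54 under PBS (adjusted p = 0.0198). Low levels under PBS were not particular to BCKA. Ifit3b was at 15.4, 12.5 and 12.8 TPM in complete medium, 7.86, 7.14 and 7.01 TPM with returned BCAA and 4.03, 7.14 and 3.93 TPM in BCAA-free medium. Ifi27l2a was at 31.5, 28.1 and 26.3 TPM with returned BCAA, overlapping complete medium, and 12.9, 22.6 and 9.81 TPM in BCAA-free medium. Those media were not tested under PBS.

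Igfbp2, a binding protein of insulin-like growth factors, was at 348, 449.6 and 388 TPM with BCKA and 412, 666 and 445 TPM in complete medium under TGF-β1 (log2 -0.33, 95% interval -0.85 to 0.18, adjusted p = 0.718). None of 12 markers of alveolar and adventitial fibroblasts passed under TGF-β1 (median -0.17), and 5 fell under PBS (median -0.51).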
